A study of Mus musculus with 6 samples.

Results

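The 10 genes described here encode the core of the circadian clock: the activators Arntl (also called Bmal1) and Clock, the repressors Per1, Per2, Per3, Cry1 and Cry2, the nuclear receptors Nr1d1 and Nr1d2 (REV-ERB alpha and beta), and the output factor Dbp. They were chosen by name, to show whether the libraries of this series differ in clock gene levels, and all 10 were found among the 31617 genes of the deposited table. RNA was sequenced from pancreatic macrophages of Balb/c mice, genotype wild type, sorted as CD45+CD11b+F4/80+ cells. Acute pancreatitis was induced with 10 hourly intraperitoneal injections of caerulein, a peptide that drives acinar cells through the cholecystokinin receptor, at a dose given in the design text as 100 mg/kg. Macrophages were taken 1, 3, 4, 5 and 7 days after the first injection, day 4 being named only in the sample labels. Mock mice, called day 0, received saline according to the design text, while the sample label gives their treatment as none. All mice were fasted for a night before the injections. Every day is represented by 1 library, made from a pool of more than 3 mice, and differences between days therefore have no replicate check. The sources used here do not give the hour of the day at which each pool was taken, or the age and sex of the mice. With 1 library per day, hour and day of collection cannot be told apart.

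In mammalian cells the clock is a loop of transcription. ARNTL and CLOCK bind E-box sequences as a pair and switch on the Per, Cry, Nr1d1, Nr1d2 and Dbp genes. PER and CRY proteins then block the pair, and the REV-ERB proteins repress Arntl through ROR elements, where the ROR receptors activate it. DBP acts on D-box sequences, which are found in Per genes among others. In a tissue whose cells are synchronised, Nr1d1 and Dbp transcripts peak at about the phase at which Arntl transcripts are low. Macrophages carry such a clock, and REV-ERB proteins are known there as repressors of inflammatory genes. Per1 is also an immediate target of cAMP signalling and of glucocorticoids.

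The elements can be seen in the promoters. RefSeq windows of 250 bases before to 50 bases after the start site, on GRCm38.p6, were available for 9 of the 10 genes, as 13 windows since some genes have several starts. They were searched on both strands for the E-box CACGTG, the related E′-box CACGTT, the D-box letters TTATGTAA or TTACGTAA, and the core of the ROR element, TAGGTCA or TGGGTCA. None of these letters overlapped in the matches found. Shown are the windows of Nr1d1, which had the widest gap between mock and day 1, of Per1, of Per3, and of Arntl at its second start, in the gene's direction, with matches in capitals. They lie at chr11:98775328-98775627 (minus strand), chr11:69098699-69098998 (plus strand), chr4:151044616-151044915 (minus strand) and chr7:113207261-113207560 (plus strand).
Nr1d1 promoter: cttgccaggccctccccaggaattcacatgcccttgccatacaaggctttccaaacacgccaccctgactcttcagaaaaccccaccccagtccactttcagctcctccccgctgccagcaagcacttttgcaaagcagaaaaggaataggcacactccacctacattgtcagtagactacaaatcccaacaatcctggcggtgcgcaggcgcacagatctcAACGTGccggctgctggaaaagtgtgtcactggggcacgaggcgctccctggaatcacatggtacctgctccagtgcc
Per1 promoter: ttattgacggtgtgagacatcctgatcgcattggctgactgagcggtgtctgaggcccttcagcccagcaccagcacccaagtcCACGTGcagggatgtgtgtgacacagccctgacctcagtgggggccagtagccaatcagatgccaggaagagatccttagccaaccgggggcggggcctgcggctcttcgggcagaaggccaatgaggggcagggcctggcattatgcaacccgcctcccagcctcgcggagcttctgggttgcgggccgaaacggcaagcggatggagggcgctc
Per3 promoter: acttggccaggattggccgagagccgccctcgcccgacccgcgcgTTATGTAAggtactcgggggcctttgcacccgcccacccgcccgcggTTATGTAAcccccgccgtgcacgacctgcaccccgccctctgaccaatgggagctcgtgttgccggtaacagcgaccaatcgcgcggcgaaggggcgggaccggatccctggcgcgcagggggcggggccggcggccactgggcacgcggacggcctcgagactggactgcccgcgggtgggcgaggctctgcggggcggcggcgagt
Arntl promoter: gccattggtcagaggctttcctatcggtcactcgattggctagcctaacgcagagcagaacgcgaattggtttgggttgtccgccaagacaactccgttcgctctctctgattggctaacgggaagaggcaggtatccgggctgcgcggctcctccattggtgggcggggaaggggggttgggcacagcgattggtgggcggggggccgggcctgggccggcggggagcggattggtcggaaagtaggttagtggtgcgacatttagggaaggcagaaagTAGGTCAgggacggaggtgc
The Nr1d1 window holds an E′-box on the opposite strand, the Per1 window an E-box, the Per3 window 2 D-boxes and the Arntl window a ROR element core just after the start. Cry1 has an E-box and an E′-box, and Cry2 an E′-box, while the windows of Clock, Nr1d2 and Dbp hold none of these letters. Of all 32851 promoter windows, 7.15% hold the E-box, 4.68% the E′-box, 1.06% the D-box letters and 6.45% the ROR core. A match describes letters only.

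The libraries held between 14853084 reads (day 4) and 25726455 reads (day 3). Values below are normalised read counts as deposited, and every fold is a plain ratio of 2 libraries. Intervals are 95% Clopper-Pearson intervals of the ratio of reads. For within-library ratios set against mock, they are 95% normal approximations on the log scale. All intervals describe counting alone and not the variation between pools of mice. Reads without molecular identifiers are also not independent molecules. The genes of the sort were present in every library, with Ptprc (CD45) between 7282 and 12626, Adgre1 (F4/80) between 9671 and 23702, and Itgam (CD11b) between 678 and 2627. In bulk RNA, fewer cells of a type and less RNA per cell cannot be told apart.

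Among the activators, Arntl differed between libraries and Clock hardly did. Arntl (ENSMUSG00000055116), the rhythmic partner of the pair, stood at normalised read counts of 403 in mock and 207, 168, 270, 586 and 307 on days 1, 3, 4, 5 and 7. It was lowest on day 3, at a log2 ratio of -1.26 to mock (interval -1.49 to -1.03), and highest on day 5, at 0.54 (0.35 to 0.72). Day 5 lay 1.80 above day 3 on the log2 scale (1.58 to 2.02), a 3.48-fold range. Days 7 and 4 were neighbours in this order whose interval took in 0. Clock (ENSMUSG00000029238), the constant partner in many tissues, had 369 in mock and 367, 288, 440, 382 and 334 on days 1, 3, 4, 5 and 7, a 1.53-fold range. Its ratios to mock on days 5 and 7 were near 0 and changed sign with the scaling of the libraries.

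The REV-ERB genes were low on day 1. Nr1d1 (ENSMUSG00000020889), which encodes the stronger rhythmic receptor of the pair in many tissues, stood at normalised read counts of 482 in mock and 67.7, 476, 335, 170 and 157 on days 1, 3, 4, 5 and 7. Mock and day 3 stood together at the top, days 5 and 7 stood together lower down, and day 1 was alone below them. The day 1 value was 7.13-fold below mock, a log2 ratio of -2.83 (-3.26 to -2.43). On days 5 and 7 Nr1d1 was at -1.51 (-1.77 to -1.25) and -1.62 (-1.87 to -1.37), and their order changed with scaling. Nr1d2 (ENSMUSG00000021775), its paralog, had 454 in mock and 153, 575, 496, 425 and 359 on days 1, 3, 4, 5 and 7. Only day 1 stood far from the rest, at -1.57 to mock (-1.87 to -1.28). The late libraries, in which Nr1d1 was low, held Nr1d2 at -0.09 (-0.29 to 0.10) on day 5 and -0.34 (-0.53 to -0.15) on day 7.

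Dbp had the widest range of the 10 genes. Dbp (ENSMUSG00000059824), a PAR bZIP factor that carries clock time to output genes, stood at normalised read counts of 134 in mock and 30.8, 222, 296, 87.4 and 107 on days 1, 3, 4, 5 and 7. These rest on 140, 25, 315, 229, 84 and 127 reads. Day 4 was 9.63-fold above day 1, a log2 difference of 3.27 (2.67 to 3.93). Against mock Dbp was at -2.12 on day 1 (-2.796 to -1.498), 0.73 on day 3 (0.44 to 1.03) and 1.15 on day 4 (0.84 to 1.46). The day 4 value was just under 2-fold, at 0.95, with libraries rescaled to equal totals. On day 7 the interval to mock took in 0.

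The 3 Per genes, the repressors that heterodimerise with CRY, did not follow 1 course. Per1 (ENSMUSG00000020893) stood at normalised read counts of 621 in mock and 346, 396, 259, 185 and 432 on days 1, 3, 4, 5 and 7. Mock was the highest library and day 5 the lowest, at -1.75 to mock (-1.993 to -1.504), while day 4 was at -1.26 (-1.498 to -1.031). Per3 (ENSMUSG00000028957), the member with the D-boxes shown above, had 57.3 in mock and 25.8, 83.8, 105, 65.5 and 57.4 on days 1, 3, 4, 5 and 7. Its lowest and highest libraries were those of Dbp, day 1 and day 4, which were 2.02 apart on the log2 scale (1.31 to 2.79). Per2 (ENSMUSG00000055866) had 76.4 in mock and 36.9, 66.2, 46.6, 74.9 and 74.3 on days 1, 3, 4, 5 and 7. No 2 neighbours in its order had an interval clear of 0, and day 1 was at -1.05 to mock (-1.71 to -0.43). Per2 rests on 30 to 94 reads per library and Per3 on 21 to 119, and both lie below the 10000 genes of highest mean.

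The 2 Cry genes, which encode the PER partners that block ARNTL and CLOCK, were low on days 4 and 5. Cry1 (ENSMUSG00000020038) stood at normalised read counts of 248 in mock and 290, 209, 167, 147 and 243 on days 1, 3, 4, 5 and 7. Cry2 (ENSMUSG00000068742) had 157 in mock and 119, 130, 72.5, 72.8 and 133 on days 1, 3, 4, 5 and 7. Cry2 was at -1.11 to mock on both day 4 (-1.58 to -0.67) and day 5 (-1.53 to -0.69), and reached -0.95 at the weakest setting on each day. Cry1 was highest on day 1, where its paralog Cry2, at -0.39 (-0.77 to -0.02), and Per1, Per2, Per3, Nr1d1, Nr1d2 and Dbp were below mock. Its day 1 ratio of 0.23 (-0.03 to 0.49) took in 0 and was -0.02 with libraries rescaled to equal totals.

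**Figure D1:**
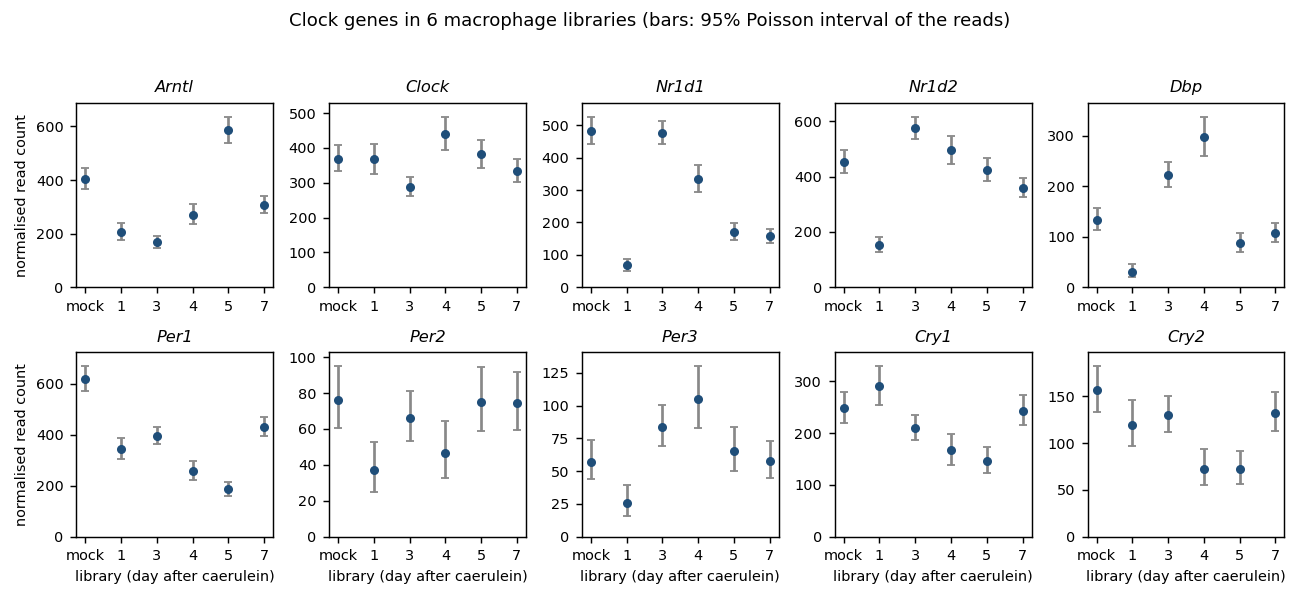
Normalised read count (vertical axes, from 0) of the 10 clock genes in the mock library and on days 1, 3, 4, 5 and 7 (horizontal axes), 1 library per point with the 95% Poisson interval of its reads. Day 1 is the lowest point for Nr1d1 (67.7), Nr1d2 (153), Dbp (30.8), Per2 (36.9) and Per3 (25.8), whereas Arntl peaks on day 5 (586) and Per1 in mock (621).

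The clock genes were then counted against mock day by day. On day 1, 5 of the 10 genes were at least 2-fold lower (Nr1d1, Dbp, Nr1d2, Per3 and Per2) and 0 at least 2-fold higher. Of the 10000 genes with the highest mean, 10.9% were at least 2-fold lower and 7.33% higher in the same pair of libraries. Among the 8 clock genes that belong to those 10000, 3 were 2-fold lower, and days 4 and 5 also had 3 of these 8 at least 2-fold away. The median log2 ratio was -1.01 over the 10 genes and 0.16 over the 10000. Arntl, at -0.96 (-1.23 to -0.70), and Per1, at -0.84 (-1.05 to -0.64), were just short of 2-fold, and Arntl was past it under each of the 3 other scalings, at -1.21 with equal totals, -1.08 with median centring and -1.06 with TMM factors. Per2 and Per3 fell short of it when a pseudocount of 17.8 was added, at -0.78 each.

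On day 3 only Arntl was 2-fold away from mock, though other genes had intervals clear of 0. Among them were Dbp at 0.73 (0.44 to 1.03), Per1 at -0.65 (-0.81 to -0.48) and Per3 at 0.55 (0.09 to 1.02). Arntl alone was at least 2-fold lower, against 6.29% of the 10000 genes, and 0 of 10 were higher, against 4.33%. The median of the 10 genes was -0.23, against 0.08 for all. Against day 1, 4 of the 10 were at least 2-fold higher on day 3, Dbp by 2.85 (2.26 to 3.50), Nr1d1 by 2.81 (2.42 to 3.24), Nr1d2 by 1.91 (1.64 to 2.20) and Per3 by 1.70 (1.02 to 2.44) on the log2 scale, beside 11.0% of the 10000 genes. In that step 0 of 10 were 2-fold lower, beside 9.21%.

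On day 4 the genes parted. Dbp was at least 2-fold higher than mock, and Per1 and Cry2 were at least 2-fold lower. Among the 10000 genes 3.83% were higher and 8.85% lower. Per3 was at 0.87 (0.37 to 1.38) and Per2 at -0.71 (-1.32 to -0.13), so members of the Per family lay on opposite sides of mock with both intervals clear of 0. The median over the 10 genes was -0.55, and -0.01 over the 10000. Between days 3 and 4, 0 of 10 were 2-fold apart in either direction, beside 4.2% of the 10000 genes higher and 6.59% lower. The largest step was that of Cry2, at -0.85 (-1.30 to -0.41).

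On day 5 Per1, Nr1d1 and Cry2 were at least 2-fold lower than mock and 0 of 10 higher, beside 6.99% and 4.37% of the 10000 genes. The median of the 10 genes was -0.35 against 0.12. Arntl was at its highest. In the 1 day since day 4, Arntl was 1.11 higher (0.88 to 1.35) and Dbp was at -1.76 (-2.14 to -1.40), the 2 genes of the 10 that were 2-fold apart, beside 6.47% of the 10000 genes higher and 3.96% lower. Nr1d1 stood at -0.98 in that step (-1.27 to -0.69). The Arntl step was 0.94 after centring each library on its median gene.

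On day 7 the clock genes were within 2-fold of mock except for Nr1d1, the 1 gene of 10 at least 2-fold lower, beside 7.59% of the 10000 genes. None of the 10 was 2-fold higher, beside 2.55%. The median was -0.28 over the 10 genes and -0.11 over all. Per1 was 1.22 above day 5 (0.98 to 1.48), the only clock gene 2-fold apart in that step, beside 5.81% of the 10000 genes higher and 5.41% lower. With libraries rescaled to equal totals, which moved every gene by 0.43, 3 of the 10 genes were 2-fold higher on day 7 than on day 5, beside 959 of the 10000 genes, and 85.2% of the 2-fold calls over the 10000 were then higher instead of 51.8%.

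**Figure D2:**
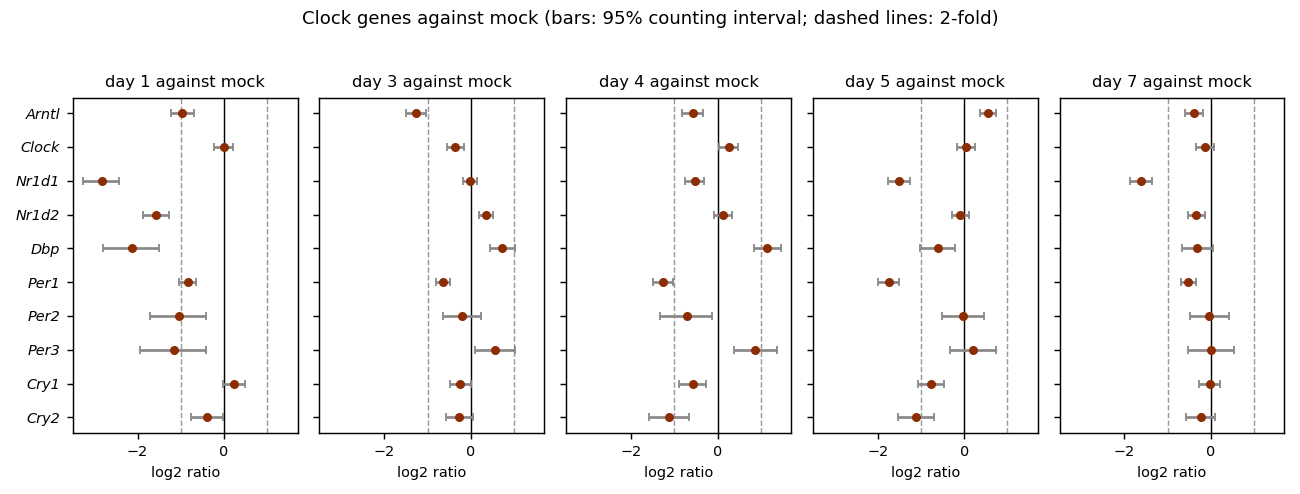
Log2 ratio of each caerulein library to mock (horizontal axes) for the 10 clock genes (vertical axis), 1 panel per day, with the 95% counting interval and dashed lines at 2-fold. On day 1 Nr1d1 (-2.83), Dbp (-2.12) and Nr1d2 (-1.57) have intervals wholly past 2-fold, and on day 7 Nr1d1 (-1.62) is the 1 gene past it.

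Over all 6 libraries, 8 of the 10 genes had a range of at least 2-fold, all but Clock and Cry1, beside 58.4% of the 10000 genes. A range of at least 4-fold was found for 3 of them, Dbp, Nr1d1 and Per3, beside 16.7%. Per2 and Per3 are counted here though they lie outside the 10000, with ranges of 2.07-fold and 4.06-fold. The log2 interval of the Per3 range, 1.31 to 2.79, reached below 4-fold. The median range was 1.77 on the log2 scale for the 10 genes and 1.13 for the 10000. Without the day 1 library, 5 of the 10 genes had a range of at least 2-fold, beside 45.0% of the 10000.

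Ratios of 2 genes inside 1 library do not depend on how libraries are scaled to each other. The reads of Nr1d1 over those of Arntl gave 1.20 in mock and 0.327, 2.83, 1.24, 0.290 and 0.511 on days 1, 3, 4, 5 and 7. Day 3 was high, days 1 and 5 low, and day 4 equal to mock within its counting interval (0.05, -0.27 to 0.37 on the log2 scale). On day 1 the ratio was 3.66-fold and on day 5 4.13-fold below mock. Low ratios on these days came from different values of the pair, since Arntl was below mock on day 1 and above it on day 5. The reads of Dbp over those of Arntl gave 0.332 in mock and 0.149, 1.32, 1.10, 0.149 and 0.349 on days 1, 3, 4, 5 and 7. Days 3 and 4 were high together for this pair, and day 7 was at the level of mock (0.07, -0.33 to 0.47). Per1 over Arntl was 1.54 in mock and 1.67, 2.35, 0.957, 0.316 and 1.41 on days 1, 3, 4, 5 and 7, so that only day 5 stood far below mock. Across the 5 steps between successive libraries, Nr1d1 and Nr1d2 moved the same way in 5. Arntl and Nr1d1 moved in opposite directions in 3, and Arntl and Per1 in 4. With libraries rescaled to equal totals the day 5 to day 7 direction of both Nr1d1 (0.32) and Nr1d2 (0.19) flipped. With libraries centred on their median gene Nr1d1 turned to 0.09 and Nr1d2 stayed at -0.05, so that the pair then moved apart in this step.

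**Figure D3:**
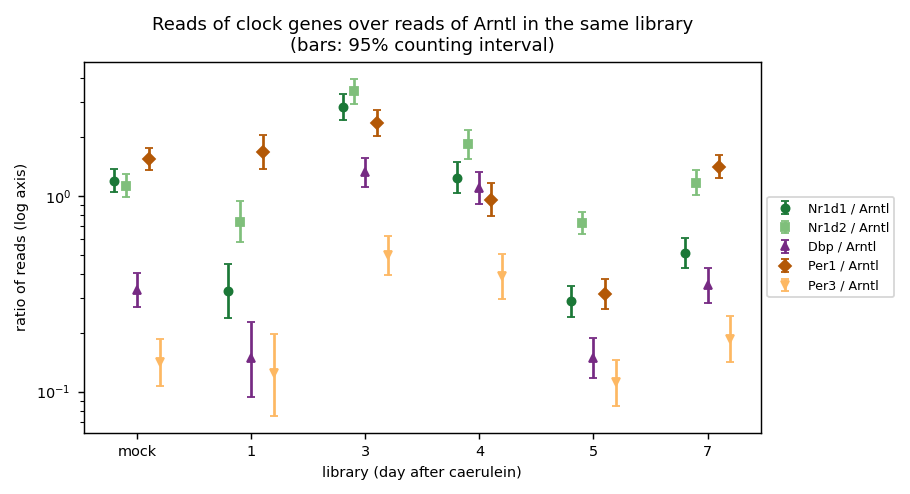
Reads of Nr1d1, Nr1d2, Dbp, Per1 and Per3 divided by reads of Arntl in the same library (vertical axis, log scale) for mock and days 1, 3, 4, 5 and 7 (horizontal axis), with 95% counting intervals. The Nr1d1 ratio is highest on day 3 (2.83) and lowest on days 1 (0.327) and 5 (0.290), and the ratios are read between libraries, not between genes.

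Other genes of the loops were followed beside the 10. Of 13 such genes 9 were among the 10000. Of the 9, 1 was at least 2-fold higher and 2 lower than mock on day 1, beside 7.33% and 10.9% of the 10000 genes. On days 3, 4, 5 and 7 the higher ones numbered 0, 1, 0 and 0 and the lower ones 0, 3, 3 and 3. On days 3 and 4, 4.33% and 3.83% of the 10000 genes were higher and 6.29% and 8.85% lower. The medians of the 9 were -0.04, 0.09, -0.09, -0.27 and -0.35 on days 1, 3, 4, 5 and 7, against 0.16, 0.08, -0.01, 0.12 and -0.11 over the 10000 genes. On days 5 and 7 those past 2-fold were all lower, beside 6.99% and 7.59% of the 10000 genes lower. Rora, whose product activates Arntl at the ROR element, stood at normalised read counts of 286 in mock and 56.6, 199, 369, 237 and 303 on days 1, 3, 4, 5 and 7, so that day 1 alone was far below the others. Bhlhe40 (DEC1), which represses E-box genes, had 3906 in mock and 1533, 2173, 1595, 728 and 2345 on days 1, 3, 4, 5 and 7. Its highest library, mock, and its lowest, day 5, were those of Per1. Nfil3 (E4BP4), the D-box repressor that opposes DBP, had 3661 in mock and 3680, 3893, 1496, 800 and 1121 on days 1, 3, 4, 5 and 7. Timeless, which in mammals also serves DNA replication, had 410 in mock and 425, 446, 68.6, 226 and 202 on days 1, 3, 4, 5 and 7. Its day 4 minimum was in a library where all 8 cell cycle genes examined were at least 2-fold below mock, beside 8.85% of the 10000. At least 2-fold below mock were also 8 of them on day 1, 8 on day 5 and 6 on day 7, beside 10.9%, 6.99% and 7.59%. Timeless was at 0.05, -0.86 and -1.02 to mock on these days. On day 3, 7 of the 8 were at least 2-fold higher, beside 4.33%, and Timeless was at 0.12. The part of the cell cycle genes in the Timeless values was not tested.

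Tef, the PAR bZIP paralog of Dbp, stood at normalised read counts of 286 in mock and 153, 503, 477, 263 and 334 on days 1, 3, 4, 5 and 7. Like Dbp it was lowest on day 1 and high on days 3 and 4. Ciart (CHRONO), a repressor of the ARNTL and CLOCK pair, had 209 in mock and 108, 206, 197, 75.9 and 52.4 on days 1, 3, 4, 5 and 7. Like Nr1d1 it was near mock on day 3 and low on days 1, 5 and 7, but its lowest library was day 7. Cipc, another inhibitor of CLOCK, went the other way on day 1, with 737 against 196 in mock and between 223 and 437 on the later days. Tef, Ciart and Cipc were singled out after their values were seen.

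**Figure D4:**
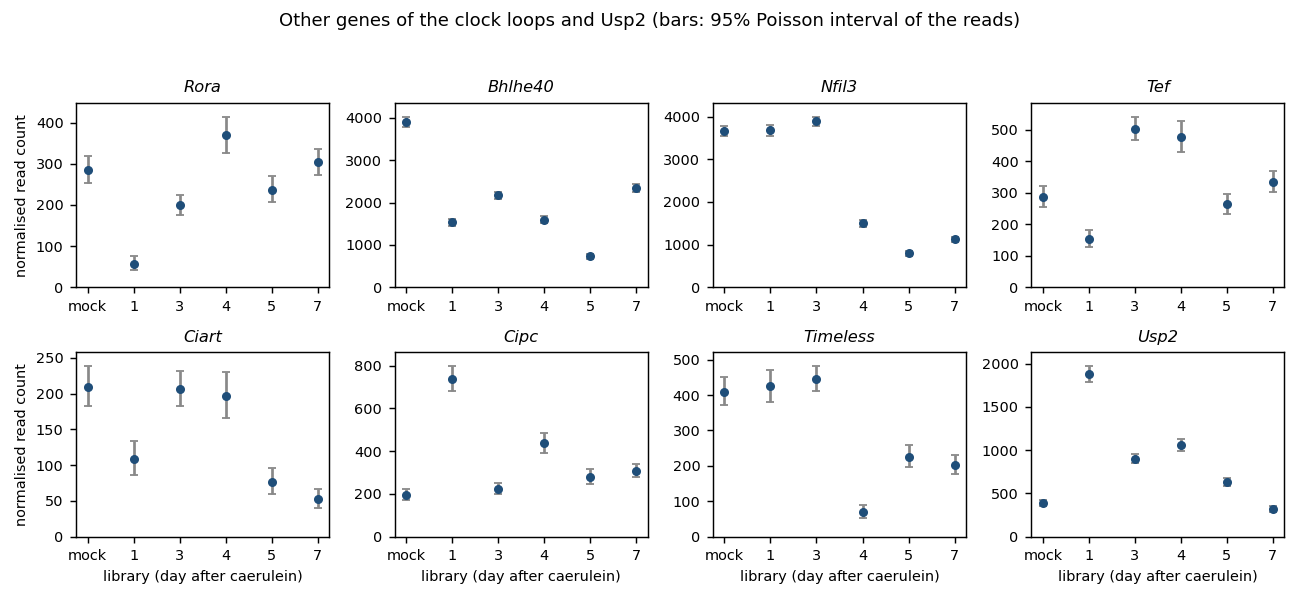
Normalised read count (vertical axes, from 0) of 7 other clock loop genes and Usp2 in mock and on days 1, 3, 4, 5 and 7 (horizontal axes), with the 95% Poisson interval of the reads. Rora is lowest on day 1 (56.6), Bhlhe40 and Nfil3 on day 5 (728 and 800), and Usp2 is highest on day 1 (1875).

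Genes of enzymes that tag and remove clock proteins were counted in the same way. Of the 10000 genes, 18.3%, 10.6%, 12.7%, 11.4% and 10.1% were at least 2-fold away from mock in either direction on days 1, 3, 4, 5 and 7. Of 10 kinase, ubiquitin ligase and deubiquitinase genes 9 were among the 10000, and against mock 1 of the 9 was at least 2-fold higher on days 1, 3 and 4, and 0 on days 5 and 7, with 0 lower on any day. That 1 gene was Usp2, a deubiquitinase that is itself rhythmic in many tissues, with 386 in mock and 1875, 899, 1057, 630 and 321 on days 1, 3, 4, 5 and 7. Usp2 was highest in the library in which Dbp and Nr1d1 were lowest. The ligase gene Fbxw11 had a range of 1.75-fold and the deubiquitinase gene Usp9x one of 1.74-fold.

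Of 12 output genes rhythmic in many tissues, 11 were among the 10000, and they did not move as 1 group. Against mock 4 were at least 2-fold higher and 1 lower on day 1. On days 3, 4, 5 and 7 there were 2, 2, 1 and 0 higher and 2, 0, 1 and 2 lower. Over the 10000 genes, 7.33%, 4.33%, 3.83%, 4.37% and 2.55% were higher on days 1, 3, 4, 5 and 7. The shares lower were 10.9%, 6.29%, 8.85%, 6.99% and 7.59%. The medians of the list lay between -0.03 and 0.29. Lpin1, a phosphatidate phosphatase gene, was at -2.79 on day 1 and -1.39 on day 3. The tetraspanin gene Tspan4 was at 1.83 on day 3 and 2.65 on day 4. Tsc22d3 (GILZ), which is also a glucocorticoid target, was at 0.05, -1.18, -0.20, 0.92 and 0.98 on days 1, 3, 4, 5 and 7.

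Genes of the 2 signals that also drive Per1 were followed beside it. Of 10 cAMP and CREB-induced genes, all among the 10000, 5 were at least 2-fold lower than mock on each of days 1, 5 and 7. The medians there were -0.93, -1.05 and -0.93. On days 3 and 4, 0 were lower, with medians of -0.16 and 0.17. Of the 10000 genes, 10.9%, 6.29%, 8.85%, 6.99% and 7.59% were at least 2-fold lower on days 1, 3, 4, 5 and 7. The shares at least 2-fold higher were 7.33%, 4.33%, 3.83%, 4.37% and 2.55%. The orphan receptor gene Nr4a3 was at -2.45, -0.40, 0.41, -1.70 and -1.52 on days 1, 3, 4, 5 and 7. Areg, the amphiregulin gene, was at -1.11, -0.22, -0.72, -3.56 and -3.35 on the same days, and Fosb at -1.33 on day 1 and 0.95 on day 4. Pde4d went apart, at 1.80 on day 1 and 1.76 on day 3. The days on which this list was low were those on which Nr1d1 was low, whereas Per1 was lowest on days 4 and 5. Of 12 glucocorticoid-induced genes 11 were among the 10000, and 4 were at least 2-fold lower and 1 higher on day 1. On days 3, 4, 5 and 7 there were 2, 0, 2 and 2 lower and 0, 0, 1 and 0 higher. Their medians were -0.88, 0.01, -0.09, -0.39 and -0.45. The haemoglobin scavenger receptor gene Cd163 was at -2.18 and the metallothionein gene Mt2 at -1.21 on day 1, and Mt2 at -2.49 on day 5. Cdkn1a (p21) was at 0.78 on day 1 and -1.57 on day 7. The part of either signal in the Per1 values was not tested.

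Immediate early and heat shock genes, which respond to tissue digestion and sorting, differed between libraries too. Of 15 such genes, all among the 10000, 5 were at least 2-fold lower than mock on day 1, and 4, 3, 0 and 4 on days 3, 4, 5 and 7, beside 10.9%, 6.29%, 8.85%, 6.99% and 7.59% of the 10000 genes. On day 5, 2 were higher, beside 4.37% of the 10000 genes, and 0 on each of the other days. Their medians were -0.30, -0.66, 0.34, 0.26 and -0.45, lower on day 7 than on day 1. Egr1 was at -2.19 on day 1, -1.49 on day 3 and 0.49 on day 5, and Egr2 at -1.67, -1.10 and 1.34. Hspa1b was at -2.64 on day 1, -1.46 on day 3 and -2.38 on day 4, and its count can share reads with its near-identical copy Hspa1a. Ier3 was at -2.68 on day 7. The part of handling in the clock values was not tested.

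Of 6 genes reported as repressed by REV-ERB in macrophages, 1 was at least 2-fold higher and 3 lower than mock on day 1, when Nr1d1 and Nr1d2 were lowest. The higher one was the chemokine gene Ccl2, at 2.17. The 3 lower were Il6, at -2.90, Cx3cr1, the fractalkine receptor gene, at -2.50, and the protease gene Mmp9. Mmp9 had a normalised read count of 1127 against 3855 in mock. Short of 2-fold were Tlr4, higher with 2066 against 1091 in mock, and Il10, at -0.19. On day 7, when Nr1d1 was low and Nr1d2 near mock, 4 of 6 were lower and 0 higher, with Il10 at -3.80, Il6 at -3.00 and Ccl2 at -2.50. Cx3cr1 was highest on day 5, at 1.23. On days 3, 4 and 5 there were 0, 0 and 1 higher and 1, 2 and 2 lower. Over the 10000 genes, 7.33%, 4.33%, 3.83%, 4.37% and 2.55% were higher on days 1, 3, 4, 5 and 7. The shares lower were 10.9%, 6.29%, 8.85%, 6.99% and 7.59%.

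Markers of several cell types also differed between the libraries. On day 1, 4 of 6 monocyte markers were at least 2-fold higher than mock and 1 lower, beside 7.33% and 10.9% of the 10000 genes. The summed normalised read count of the 6 markers was 129797 against 43323 in mock and between 17544 and 48486 on later days. Division genes were lower on that day in 8 of 8 cases, with Birc5 at -3.79, Ccnb2 at -3.73, Ccna2 at -3.57 and Ccnb1 at -3.14. On day 3, when Arntl was lowest, 7 of those 8 were at least 2-fold higher, Ccnb1 by 2.26 and Birc5 by 1.95. So were 5 of the 6 fibroblast markers that were among the 10000, beside 4.33% of all 10000 genes. The sum over 7 fibroblast markers was 15598 against 3020 in mock. Acinar markers were high in mock and on day 7, with sums of 469709 and 561181 over 10 markers against 20110 to 57457 on the other days. T cell markers were split the same way, with sums over 6 markers of 3212 and 4341 in mock and on day 7 and of 373 to 1086 on the other days, and B cell markers too, with 6283 and 5512 against 689 to 1877. The 10 macrophage markers had medians of 0.28, 0.10, 0.27, 0.97 and -0.19 to mock on days 1, 3, 4, 5 and 7. Their sums, of 440184 (day 7) to 1407920 (day 4), were mostly Lyz2, with 317968 and 1241210 in these libraries. None of the markers of these 6 cell types was at 0 in any library. What part these cells have in the clock values was not tested.

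**Figure D5:**
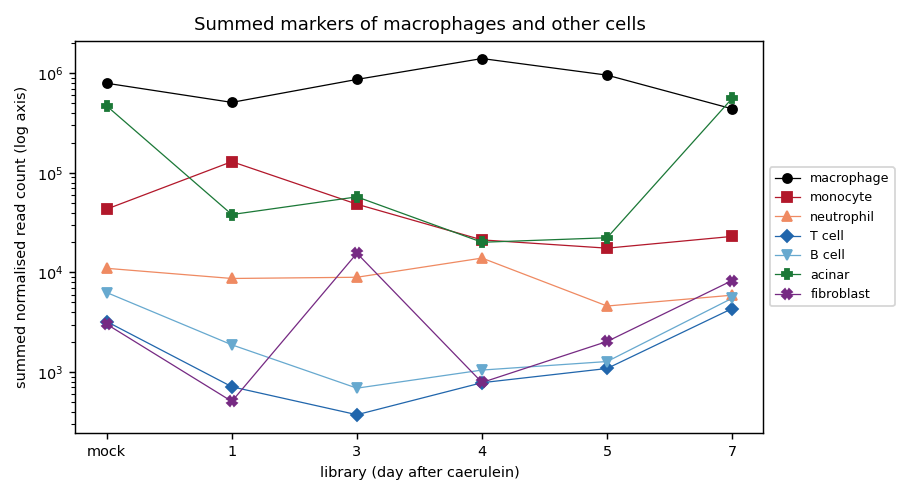
Summed normalised read count (vertical axis, log scale) of markers of macrophages and 6 other cell types in mock and on days 1, 3, 4, 5 and 7 (horizontal axis), with lines only to guide the eye. Monocyte markers are highest on day 1 (129797), fibroblast markers on day 3 (15598), and acinar and T cell markers in mock and on day 7.

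The genes whose course over the 6 libraries was most like that of Nr1d1, by Pearson's r of log2 values among 5554 genes with a range of at least 2-fold, were Layn (r = 0.99), Csrp1 (0.97), Clybl (0.97), Errfi1 (0.97) and Pccb (0.96). Layn, the layilin gene, stood at normalised read counts of 180 in mock and 32.0, 195, 159, 77.0 and 66.7 on days 1, 3, 4, 5 and 7. Those most like Arntl were Ptpro (0.98), Tagap (0.97), Cdr2 (0.97), Cp (0.94) and Rnf19b (0.94). Ptpro, a receptor tyrosine phosphatase gene, had 3416 in mock and 2352, 1852, 2871, 5210 and 2751 on days 1, 3, 4, 5 and 7. Among the clock genes themselves, r with Nr1d1 was 0.90 for Nr1d2, 0.87 for Dbp, 0.78 for Per3 and 0.00 for Arntl. The 6 points share depth and cell make-up within each library, and with so many genes compared a high r is no finding.

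A count test across all genes was also run on the recovered reads, treating the 5 caerulein days as replicates of 1 group against the mock library. By edgeR's quasi-likelihood test with Benjamini-Hochberg adjustment, 0 of 14106 genes passed an adjusted p of 0.05 (0.0%), with 102 at an unadjusted p under 0.05, and DESeq2 called 2. None of the 10 clock genes passed, and 0 of 10 had an unadjusted p under 0.05 by either tool. The lowest unadjusted p was that of Per1, at 0.0720 by edgeR (adjusted p = 1), with a log2 difference of -0.97 and a value below mock in 5 of 5 libraries. For Nr1d1 the log2 difference was -1.03, and its day 3 value was level with mock, at -0.02 (-0.19 to 0.15). The test asks only whether mock lies outside the spread over days, and a p over the threshold does not show that the levels were alike.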

How the data were processed

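The deposited table gives, per the file headers, 1 value per gene for 6 libraries, named by day. Within a column every value is a whole multiple of 1 step, and the signal deposited by the authors is thus a gene count divided by 1 factor per library. All values (100%) came out whole within 0.01 reads, and the factors equal median-of-ratios size factors. Bowtie 0.12.2 and genome build mm8 are named without a role, per the submitters' processing notes; the sources used here do not give the counter, annotation or strand. Promoter sequences come from RefSeq on GRCm38.p6, another build, and were matched by symbol. Of the gene identifiers, 99.4% were found in a mouse gene name table.

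Groups came from sample titles. The members and lists were chosen with earlier results of these data known. Log2 ratios used no pseudocount, with values under 3 reads set to 3 reads (2.11 to 3.88 units). Genes were counted at 2-fold, beside the same share of the 10000 genes with the highest mean (at least 74.1). Named genes were the 10 clock genes, the genes of the sort, and the 5 most like Nr1d1 and Arntl. To these came up to 4 of each list with the widest range. Tef, Ciart, Cipc, Mmp9 and Tlr4 were added after their values were seen. Some genes of the lists are not reported here. Itgam stands on 2 rows, of which the higher was used. Genes with 60 reads or more entered the count tests (R 4.3.3 with edgeR 4.0.16, and DESeq2 1.42.0 as the alternative). The rest was computed in Python 3.11.15 (pandas 2.3.3, numpy 2.4.6, scipy 1.17.1) and drawn with matplotlib 3.10.9. The log2 ratios with their Clopper-Pearson intervals and the edgeR test were first tried on simulated data. The other calculations were not. Alternatives were other scalings, a pseudocount, other filters and folds, and leaving out libraries.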

Additional observations from a re-analysis of the deposited data

How the results depend on the processing

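Counts of clock genes at least 2-fold apart kept to within 1.5 times under TMM factors in all 9 comparisons. With a pseudocount of 17.8 the day 1 count against mock was 3 instead of 5, and it was also 3 when the counting interval had to pass 1.5-fold, as on days 4 and 5. It was 7 with equal totals and 6 with median centring or TMM factors. Among the 6000 highest genes, to which few clock genes belong, the counts were 1 on day 1, 0 on days 3, 4, 5 and 7 against mock, 1 for day 3 against day 1, 0 for day 5 against day 4 and for day 7 against day 5, and 1 for the range over libraries, since fewer members are counted. At 1.5-fold they were 3, 5 and 5 on days 3, 4 and 5 against mock, and 4, 5 and 4 for day 4 against day 3, day 5 against day 4 and day 7 against day 5. For day 7 against day 5 the count of 1 became 3 with equal totals and 2 with median centring. Leaving out 1 library gave 5 to 8 genes with a 2-fold range, the lowest without day 1. Against mock, scaling to equal totals shifted every gene by -0.25, -0.11, -0.19, -0.15 and 0.28 on days 1, 3, 4, 5 and 7, and 67.4% of the all-gene calls on day 7 were then higher instead of 25.1%.

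On the log2 scale against mock, Dbp to Arntl in place of Nr1d1 to Arntl gave -1.16, 1.99, 1.72, -1.15 and 0.073 on days 1, 3, 4, 5 and 7, the last of the other sign than -1.23. Per2 to Arntl gave -0.086 on day 1, -0.57 on day 5 and 0.35 on day 7, again of the other sign. DESeq2 called 2 genes where edgeR called 0, and edgeR called 0 clock genes and 0 genes in all without each caerulein library in turn and without a filter; without day 7 the unadjusted p of Per1 was 0.0428, with none of the 10 passing adjustment. No single gene ratio past 2-fold changed sign under any scaling or pseudocount. No paired analysis was possible because each group holds 1 library and the labels give no replicate numbers. Per2 and Per3, on 21 to 119 reads, are limited most by depth.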
